A study of Mus musculus with 12 samples.

Results

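Collagen is modified and then crosslinked through its lysine residues, and the 10 genes described here encode the enzymes of that route. They are the collagen galactosyltransferases *Colgalt1* and *Colgalt2*, the lysyl hydroxylases *Plod1*, *Plod2* and *Plod3*, and the lysyl oxidases *Lox*, *Loxl1*, *Loxl2*, *Loxl3* and *Loxl4*. The members were taken by gene symbol from a count table of 47069 genes, and all 10 were found. The RNA came from tibia shafts of 12 males, all 8 weeks old, with 4 mice in each of 3 groups. Jrt;Sost-ko mice carry the dominant *Col1a1*Jrt allele in the heterozygous state (Col1a1Jrt/+) and lack *Sost* on both chromosomes (Sost-/-). Jrt;Sost-het mice carry the same Col1a1Jrt/+ genotype, and the study's methods give them as heterozygous for the *Sost* deletion, which their labels do not state. WT mice are wild type at both genes. The Jrt allele is a splice variant that removes an exon of *Col1a1* in frame and serves as a model of severe osteogenesis imperfecta. *Sost* encodes sclerostin, an inhibitor of bone formation that is made by osteocytes. Both Jrt groups came from a single colony of mixed FVB and C57BL6 background, whose Jrt;Sost-ko genotype goes back to a recombination between the linked *Col1a1* and *Sost* genes. The WT mice were bred in a parallel colony, also of mixed FVB and C57BL6 background, so that genotype and colony cannot be told apart in any comparison with WT. The bones had been flushed of marrow, and 1 library was made per mouse.

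Lysyl hydroxylases add a hydroxyl group to lysines of newly made collagen chains in the endoplasmic reticulum. *Plod1* and *Plod3* act mainly on the triple helix, whereas *Plod2* acts on the short telopeptides at the chain ends and so determines which crosslinks can form. The galactosyltransferases attach galactose to hydroxylysines of the helix before the chains fold, and the product of *Plod3* can add glucose to that galactose. After secretion, lysyl oxidases convert telopeptide lysines and hydroxylysines to aldehydes, which react with neighbouring molecules and tie collagen fibrils together. Hydroxylated telopeptides give the pyridinoline type of crosslink that is typical of bone and cartilage. Variants in *PLOD2* and in its chaperone gene *FKBP10* cause Bruck syndrome, a form of bone fragility with joint contractures.

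The genes are spread over the genome, and none of them lies on chromosome 11, which carries *Col1a1* and *Sost*. In GRCm38, *Colgalt1* (ENSMUSG00000034807) lies at chr8:71610998-71624911 and *Colgalt2* (ENSMUSG00000032649) at chr1:152399830-152510695, both on the plus strand. *Plod1* (ENSMUSG00000019055) lies at chr4:147909753-147936767 on the minus strand, *Plod2* (ENSMUSG00000032374) at chr9:92542223-92608428 and *Plod3* (ENSMUSG00000004846) at chr5:136987019-136996648, the latter both on the plus strand. *Lox* (ENSMUSG00000024529) is on chromosome 18. *Loxl1* (ENSMUSG00000032334) lies at chr9:58287738-58313186 and *Loxl4* (ENSMUSG00000025185) at chr19:42593982-42612813 on the minus strand, *Loxl2* (ENSMUSG00000034205) at chr14:69609068-69695834 and *Loxl3* (ENSMUSG00000000693) at chr6:83034173-83052562 on the plus strand.

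GENCODE M21 annotates each of the 10 as protein coding. Exons of 6 of the 10 overlap the annotated span of another gene (*Colgalt1* with *Unc13a*, *Loxl3* with *Htra2*, *Plod3* with *Znhit1* and *Mir702*, and *Lox*, *Loxl2* and *Plod2* with noncoding or unnamed genes). Whether they also overlap exons of that gene was not examined. Whether the counting used the strand is not given in the sources used here, so that reads of a pair with shared exons may not have been told apart.

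The coding sequences show what the members of each family share and how distinct they are for read counting. Both galactosyltransferase genes end in codons for a signal that returns soluble proteins to the endoplasmic reticulum. Shown are the last coding bases with the stop codon, exonic and with the last 4 codons in capitals, at chr8:71623731-71623760 and chr1:152508759-152508788 of GRCm38, plus strand.
Colgalt1: ctggacagcactgccCGTGATGAGCTTtga
Colgalt2: gacactgtgccttcaAGAGACGAACTCtga
The pair was identical at 69.1% of 1844 aligned coding bases, and the longest run of bases shared by both was 17.

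The lysyl oxidases are recognised by a copper-binding motif in their catalytic domain. A stretch of 33 coding bases with the motif was found exactly 1 time in each of the 5 coding sequences, and it encodes 4 histidines, of which the last 3 stand at every other codon and are known as the copper ligands. The stretches of the 4 *Loxl* genes are shown with all histidine codons in capitals; that of *Lox* lies at codons 280 to 290. Each stretch is exonic and interrupted by an intron, so that it takes a pair of blocks in GRCm38. They lie at chr9:58294359-58294381 and chr9:58293720-58293729 for *Loxl1* (minus strand), chr14:69682316-69682338 and chr14:69689028-69689037 for *Loxl2* (plus strand), chr6:83049995-83050017 and chr6:83050116-83050125 for *Loxl3* (plus strand), and chr19:42599877-42599899 and chr19:42598807-42598816 for *Loxl4* (minus strand).
Loxl1: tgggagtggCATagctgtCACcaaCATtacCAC
Loxl2: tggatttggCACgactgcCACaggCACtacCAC
Loxl3: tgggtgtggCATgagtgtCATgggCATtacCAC
Loxl4: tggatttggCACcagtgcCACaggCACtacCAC
The histidine codons are written CAC throughout in *Loxl2* and *Loxl4* and partly CAT in *Loxl1* and *Loxl3*. Over the coding sequences, identity within the 3 families ranged from 62.5% (*Loxl1* and *Loxl2*) to 71.5% (*Lox* and *Loxl1*). The longest run of identical bases, in *Lox* and *Loxl1*, was 32.

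*Plod2* is annotated with 2 coding transcripts of 2277 and 2214 coding bases, which differ by an exon of 63 bases. The longer form is the main form in most connective tissues and the form known to act on telopeptides. The skipped exon, exon 14 at chr9:92601985-92602047 on the plus strand of GRCm38, is shown in capitals between 15 bases of each neighbouring coding exon.
Plod2: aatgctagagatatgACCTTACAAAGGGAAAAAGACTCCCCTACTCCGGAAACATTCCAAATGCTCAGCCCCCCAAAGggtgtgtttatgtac
Counts per gene do not separate the transcripts, so the *Plod2* values below are the sum of both.

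Libraries held between 24366061 and 44418863 reads counted on genes. Values per mouse are CPM, counts scaled to a library total of 1000000 with TMM normalization over the 12 libraries. *Sost* was between 0.326 and 1.28 CPM in Jrt;Sost-ko mice, between 26.8 and 70.4 in Jrt;Sost-het mice and between 28.5 and 72.3 in WT mice. It fell by 5.87 on the log2 scale against Jrt;Sost-het mice (SE 0.49, edgeR adjusted p = 0.013) and by 6.29 against WT (SE 0.47, adjusted p = 0.00895). The first call was lost without Jrt;Sost-ko mouse 1, 3 or 4, and the second without any of those or without WT mouse 1 or 3, although all Jrt;Sost-ko mice remained far below the others. Osteoblast and osteocyte markers were present in every library, and no marker was at 0 in all mice of a group. The libraries differed in what else they held. WT mouse 2 had the lowest and WT mouse 4 the highest summed levels among WT mice of 7 lists (osteoblast, osteocyte, osteoclast, tendon, chondrocyte, endothelial and muscle). Osteoblast markers summed to between 1177 and 2467 CPM in WT, between 1762 and 2316 in Jrt;Sost-het and between 1884 and 2391 in Jrt;Sost-ko. Chondrocyte markers summed to 1436 CPM in Jrt;Sost-het mouse 1 and 1265 in WT mouse 4, against values from 44.3 to 382 in the other mice. Muscle markers ranged from 23 to 22260 CPM over all mice. Epidermis markers reached 543 CPM in WT mouse 4 and 116 CPM in WT mouse 3, against at most 2.83 in the Jrt groups. Where WT mice 3 and 4 are left out below, WT mice 1 and 2 remain. They had the lowest osteoblast marker sums of all mice (1352 and 1177 CPM). In bulk RNA of this kind, fewer cells of a type and less RNA per cell cannot be told apart.

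All 10 genes had enough counts to be tested in each comparison, and none passed edgeR's test at an adjusted p under 0.05 in any of the 3 comparisons. The background was as low: in the comparison of both Jrt groups 1 of 16739 tested genes was called (0.00597%), between Jrt;Sost-het and WT 0 of 16775 (0%), and between Jrt;Sost-ko and WT 1 of 17155 (0.00583%). In each case the gene called was *Sost*. Fold changes between the Jrt groups are given throughout as Jrt;Sost-ko over Jrt;Sost-het. At an unadjusted p under 0.05 there were 2 of the 10 between the Jrt groups (*Colgalt2* and *Plod2*; 5.02% of all genes tested), 0 of the 10 in Jrt;Sost-het against WT (2.14% of all genes) and 2 of the 10 in Jrt;Sost-ko against WT (*Colgalt1* and *Plod2*; 3.89% of all genes). DESeq2 called 1 of the 10, *Colgalt2*, between the Jrt groups, where it called 15 genes in all (0.0896%). It called no member in the other comparisons, where it called 0 genes (0%) and 13 genes (0.0758%). Limma-voom with sample quality weights called no member, with 0 (0%), 0 (0%) and 2 (0.0117%) genes called in all. In the plot of CPM by mouse the groups overlap for most members.

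**Figure D1:**
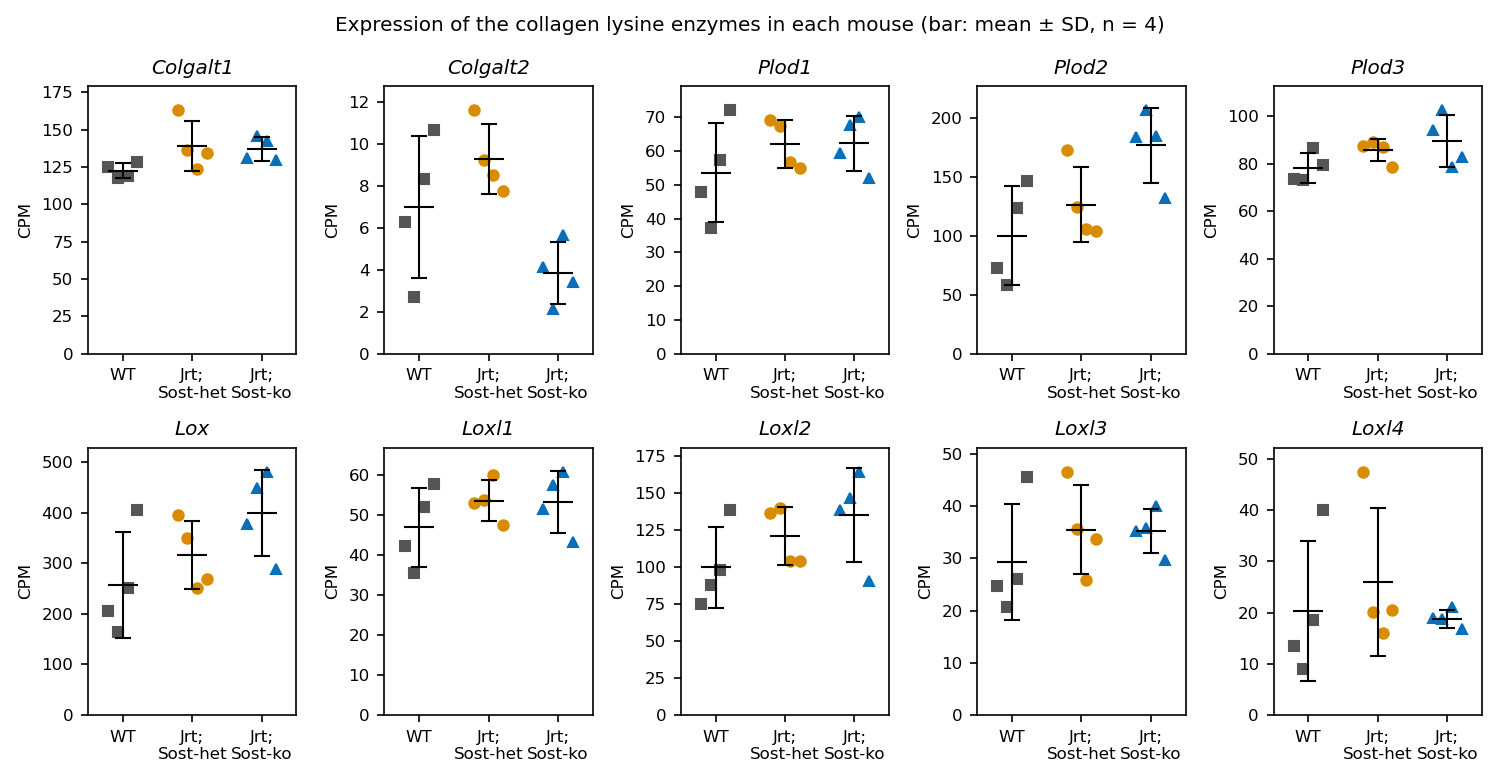
CPM of each of the 10 enzymes (y axes, linear from 0) in the 4 mice of each group (points in the order of mouse number; bars, mean ± SD). *Colgalt2* is the gene in which all Jrt;Sost-ko mice (at most 5.67 CPM) lie below all Jrt;Sost-het mice (at least 7.74 CPM), and *Colgalt1* the gene in which all Jrt;Sost-ko mice lie above all WT mice.

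Among the galactosyltransferases, *Colgalt2* was the lower and the more variable gene and *Colgalt1* the higher and steadier. *Colgalt2* was measured at 4.14, 2.14, 5.67 and 3.39 CPM in Jrt;Sost-ko mice 1 to 4, at 11.6, 9.25, 8.54 and 7.74 CPM in Jrt;Sost-het mice and at 6.29, 2.70, 8.35 and 10.7 CPM in WT mice. Every Jrt;Sost-ko mouse was below every Jrt;Sost-het mouse, while the WT mice covered nearly the range of both. The gene was counted between 72 and 386 times per library. Against Jrt;Sost-het, the fold change was 0.414 (95% interval 0.27 to 0.635; log2 -1.27, SE 0.27). The unadjusted p of 0.00121 placed *Colgalt2* at rank 14 of the 16739 genes, and its adjusted p was 0.901. DESeq2 gave nearly the same log2 fold change (-1.28) with an adjusted p of 0.0112, so the call depended on the tool. The two-sided exact permutation test gave p = 0.0286, the smallest that 4 mice against 4 allow, and *Colgalt2* was the single member of the 10 whose groups did not overlap in this comparison (3.20% of all genes tested). The study named *Colgalt2* for this contrast from the same mice, so its place here is not independent evidence.

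Against WT the *Colgalt2* difference was smaller and less certain, with a log2 fold change of -0.87 (SE 0.43) in Jrt;Sost-ko mice and of 0.41 (SE 0.36) in Jrt;Sost-het mice, the same WT mice serving in both. WT mouse 2 was at 2.70 CPM, within the Jrt;Sost-ko range. Without WT mice 3 and 4 the Jrt;Sost-ko value was -0.22 and the Jrt;Sost-het value 1.06, so that the WT reference decided the size of both. Several marker lists moved with *Colgalt2*, the chondrocyte markers by the most. All 6 chondrocyte markers were lower in the Jrt;Sost-ko group than in its Jrt;Sost-het counterpart (median log2 fold change -1.99), with sums between 114 and 364 CPM against 196 and 1436 CPM, and none was called. Muscle markers were likewise lower, 8 of 8, with a median of -0.98. So were all tendon, endothelial, osteoclast and neutrophil markers, with medians of -0.17, -0.13, -0.07 and -0.12. All erythroid markers and most osteoblast and osteocyte markers were higher. Leaving out Jrt;Sost-het mouse 1 gave a *Colgalt2* log2 fold change of -1.15; this mouse had the most chondrocyte RNA. The value was -1.13 with the chondrocyte markers as a covariate and -1.21 with the muscle markers as a covariate.

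*Colgalt1* was measured at 131, 146, 142 and 130 CPM in Jrt;Sost-ko mice, at 163, 136, 123 and 134 CPM in Jrt;Sost-het mice and at 125, 117, 119 and 128 CPM in WT mice. The Jrt groups overlapped fully, with a log2 fold change between them of -0.02 (95% interval -0.22 to 0.18). All 4 Jrt;Sost-ko mice were above all 4 WT mice, by a narrow margin (log2 0.17, SE 0.06, unadjusted p = 0.0252, adjusted p = 0.9996; exact permutation p = 0.0286). It was the single member of the 10 without overlap in this comparison (2.40% of all genes tested). The Jrt;Sost-het value against WT was 0.19 (SE 0.09), and no member was without overlap there (1.54% of all genes tested). The spread between mice within groups was the smallest of the members, with a pooled SD of 0.11 on the log2 scale against 0.61 for *Colgalt2* and a median of 0.20 over 17245 genes.

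Because both enzymes act on the same hydroxylysines, the *Colgalt2* counts were also set against the *Colgalt1* counts of the same library, which needs no scaling between libraries. *Colgalt2* reached 3.16, 1.47, 3.99 and 2.61 counts per 100 *Colgalt1* counts in Jrt;Sost-ko mice (mean 2.8 ± 1.06 SD, n = 4). The values were 7.12, 6.78, 6.93 and 5.77 in Jrt;Sost-het mice (mean 6.65 ± 0.6) and 5.02, 2.30, 7.03 and 8.33 in WT mice (mean 5.67 ± 2.63). The ratio was thus nearly the same in all Jrt;Sost-het mice and lower in every Jrt;Sost-ko mouse. The log2 difference was -1.33 (exact permutation p = 0.0286; 0.114 after Benjamini–Hochberg adjustment over the 12 ratio tests). Between Jrt;Sost-ko and WT it was -0.95 (exact p = 0.143) and between Jrt;Sost-het and WT 0.38 (exact p = 0.571). Since *Colgalt1* was nearly level between the Jrt groups (log2 -0.02), the ratio restates the *Colgalt2* difference in the same mice and is not independent evidence.

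**Figure D2:**
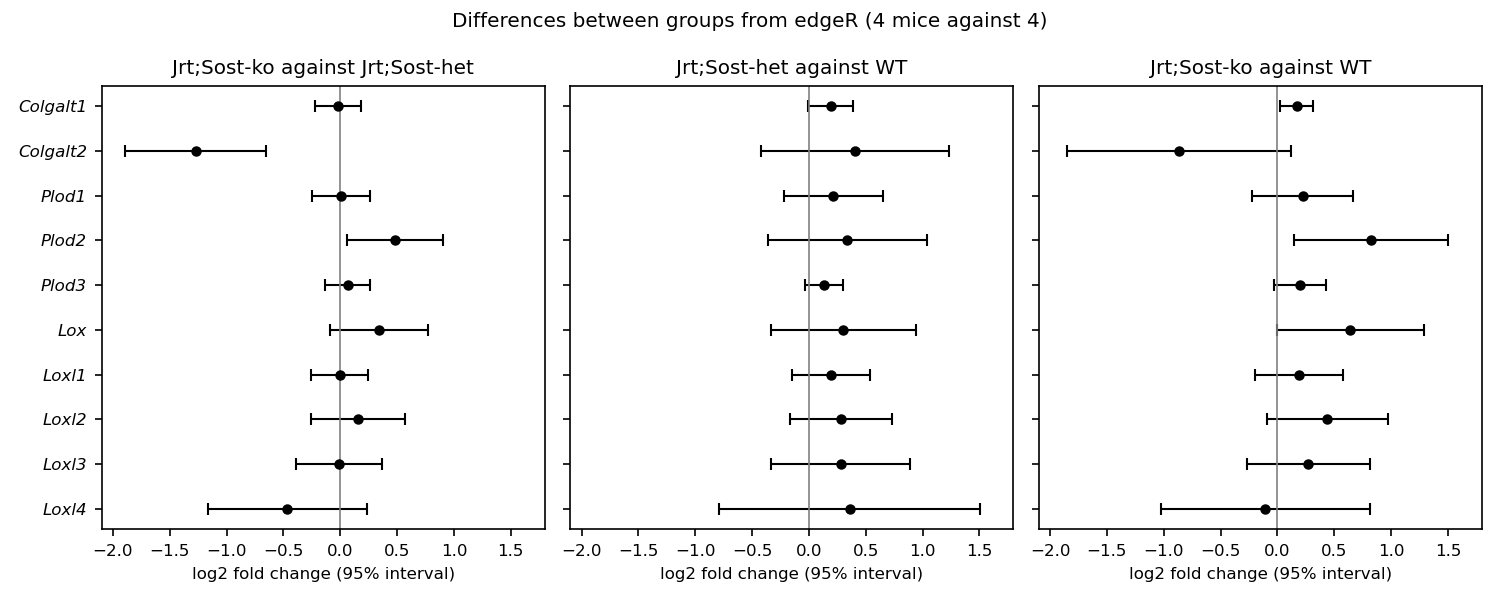
log2 fold change (points) with its 95% interval (bars) for each enzyme in the 3 comparisons of 4 mice against 4, from edgeR. *Colgalt2* (-1.27) and *Plod2* (0.48) are the genes whose interval leaves out 0 between the Jrt groups, *Colgalt1* (0.17) and *Plod2* (0.82) those for Jrt;Sost-ko against WT, and no interval does so for Jrt;Sost-het against WT.

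Among the lysyl hydroxylases, *Plod2* differed most between the groups. It was measured at 184, 206, 184 and 132 CPM in Jrt;Sost-ko mice, at 172, 124, 106 and 104 CPM in Jrt;Sost-het mice and at 72.2, 58.1, 123 and 147 CPM in WT mice. Of the 4 Jrt;Sost-ko mice, 3 lay above every mouse of the other groups, and mouse 4 lay within both. The fold change was 1.4 against Jrt;Sost-het (95% interval 1.04 to 1.87, unadjusted p = 0.0291) and 1.77 against WT (1.11 to 2.82, unadjusted p = 0.0222), with adjusted p-values of 0.901 and 0.9996. Exact permutation gave p = 0.0571 in both. Jrt;Sost-ko mice are shared by these comparisons. The log2 fold change against WT, 0.82 with all mice, was 0.64 without WT mouse 2 and 1.45 without WT mice 3 and 4. For Jrt;Sost-het against WT it was 0.34 (SE 0.31), or 0.16 without WT mouse 2. Most markers of bone cells moved with *Plod2*. Between the Jrt groups 5 of 6 osteocyte markers had a value above 0 (median log2 fold change 0.39) and 5 of 6 osteoblast markers (median 0.18). The groups did not overlap for 2 osteoblast markers, both higher in Jrt;Sost-ko, and for 1 osteocyte marker, which was lower there (3.20% of all genes tested). None of these markers was called by edgeR with all mice, but 1 osteoblast marker passed the threshold under an alternative setting. The correlation of *Plod2* with the osteocyte and osteoblast lists within groups was 0.92 and 0.95, and their part in the *Plod2* difference was not tested.

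*Plod1* and *Plod3* were close to level between the Jrt groups. *Plod1* ranged from 52.1 to 70 CPM in Jrt;Sost-ko mice, from 55.1 to 69.3 in Jrt;Sost-het mice and from 37.3 to 72.1 in WT mice, so that WT covered both. The log2 fold change between the Jrt groups was 0.00 (95% interval -0.25 to 0.26). *Plod3*, the bifunctional hydroxylase and glucosyltransferase, ranged from 78.6 to 102 CPM, from 78.7 to 89.2 and from 73.2 to 86.7 in the same order. Its log2 fold change was 0.07 (95% interval -0.13 to 0.26) between the Jrt groups, 0.13 (SE 0.07) for Jrt;Sost-het against WT and 0.20 (SE 0.10) for Jrt;Sost-ko against WT. The upper bounds of the fold change between the Jrt groups were 1.2 for both genes.

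The balance between telopeptide and helical hydroxylase, taken as *Plod2* counts per *Plod1* count, separated Jrt;Sost-ko mice from both other groups. It was 3.10, 3.05, 2.63 and 2.53 in Jrt;Sost-ko mice (mean 2.83 ± 0.29 SD, n = 4). It was 2.48, 1.84, 1.86 and 1.88 in Jrt;Sost-het mice (mean 2.02 ± 0.31) and 1.51, 1.56, 2.15 and 2.03 in WT mice (mean 1.81 ± 0.33). The lowest Jrt;Sost-ko mouse was just above the highest Jrt;Sost-het mouse, which stood apart from its group. The ratio was 1.41-fold higher than in Jrt;Sost-het and 1.57-fold higher than in WT, each with an exact permutation p of 0.0286, the smallest possible, and 0.114 after adjustment over the 12 ratio tests. Between Jrt;Sost-het and WT it differed by 1.12-fold (exact p = 0.343). Since *Plod1* was level between the Jrt groups (log2 0.004), the ratio there largely restates the *Plod2* difference in the same mice. It is not independent evidence, and both comparisons with Jrt;Sost-ko share those mice. The share of gene pairs without overlap in such a ratio was not computed. Set against *Plod3*, which varied little, *Plod2* overlapped between all groups, with means of 1.26 for WT mice, 1.47 for Jrt;Sost-het mice and 1.98 for Jrt;Sost-ko mice.

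**Figure D3:**
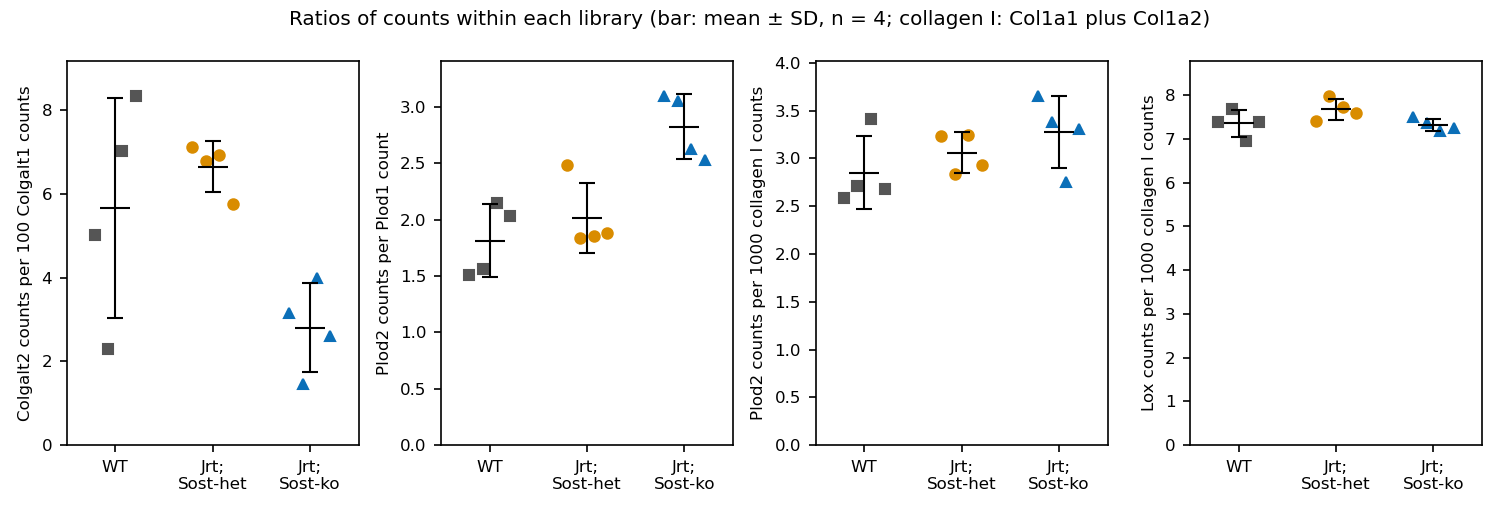
Ratios of counts within each library (y axes, linear from 0) for the 4 mice of each group (points in the order of mouse number; bars, mean ± SD). The ratio of *Colgalt2* to *Colgalt1* is lower in all Jrt;Sost-ko mice than in all Jrt;Sost-het mice and *Plod2* per *Plod1* is higher in Jrt;Sost-ko than in both other groups, whereas *Lox* per 1000 collagen I counts stays between 6.95 and 7.98 in all 12 mice.

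Among the lysyl oxidases, *Lox* was the most abundant gene of the 10 and its groups overlapped. It was measured at 378, 449, 480 and 289 CPM in Jrt;Sost-ko mice, at 395, 349, 251 and 268 CPM in Jrt;Sost-het mice and at 206, 165, 251 and 404 CPM in WT mice. The log2 fold change was 0.34 (SE 0.19, 95% interval -0.09 to 0.77) between the Jrt groups, 0.30 (SE 0.28) for Jrt;Sost-het against WT and 0.64 (SE 0.28, 95% interval -0.01 to 1.29) for Jrt;Sost-ko against WT. None of these passed an unadjusted p of 0.05, and the smallest was 0.0522. The values against WT depended on the WT mice, that of Jrt;Sost-het being 0.15 without WT mouse 2 and 0.61 without WT mouse 4, and that of Jrt;Sost-ko 0.48 without WT mouse 2 and 1.11 without WT mice 3 and 4.

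*Loxl1*, *Loxl2* and *Loxl3* differed little between the Jrt groups. *Loxl1*, which is best known for its role in elastic fibres, ranged from 43.3 to 60.8 CPM in Jrt;Sost-ko, from 47.5 to 60.1 in Jrt;Sost-het and from 35.5 to 57.9 in WT. *Loxl2*, a secreted oxidase that acts on collagen IV among other collagens, ranged from 90.6 to 164 CPM, from 104 to 140 and from 75 to 139. *Loxl3* ranged from 29.7 to 40 CPM, from 25.9 to 46.6 and from 20.8 to 45.6. Between the Jrt groups their log2 fold changes were -0.01 (SE 0.11), 0.16 (SE 0.18) and -0.01 (SE 0.17), each smaller than its standard error. Against WT, *Loxl2* had the largest difference of the 3, with 0.44 (SE 0.23) in Jrt;Sost-ko and 0.28 (SE 0.20) in Jrt;Sost-het.

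*Loxl4* was set by single mice. It was measured at 18.9, 18.7, 21 and 16.7 CPM in Jrt;Sost-ko mice, at 47.5, 20.1, 16.1 and 20.5 CPM in Jrt;Sost-het mice and at 13.6, 9.05, 18.5 and 40 CPM in WT mice. Jrt;Sost-het mouse 1 and WT mouse 4, the same libraries that had the most chondrocyte marker RNA, were each above 39 CPM, and the other 10 mice were at 21 or less. Between the Jrt groups its log2 fold change was -0.47 (SE 0.31) with all mice, -0.01 with Jrt;Sost-het mouse 1 left out and -0.02 with the chondrocyte markers as a covariate. For Jrt;Sost-het against WT it was 0.36 with all mice and -0.10 without Jrt;Sost-het mouse 1. For Jrt;Sost-ko against WT it was -0.11 with all mice and 0.46 without WT mouse 4.

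Over the list, 5 of the 10 log2 fold changes were above 0 between the Jrt groups, with a median of 0.00, as were 50.4% of all genes tested. For Jrt;Sost-het against WT all 10 were above 0 (51.3% of all genes), with values from 0.13 to 0.41 and a median of 0.28 beside 0.00 over all genes. For Jrt;Sost-ko against WT 8 of the 10 were above 0 (49.1% of all genes), *Colgalt2* and *Loxl4* being the exceptions, with a median of 0.21. The last 2 comparisons share the WT mice. The WT group included the library lowest in osteoblast markers, WT mouse 2, which was also the lowest of all 12 mice for 8 of the 10 enzymes. Of the 10 values above 0 for Jrt;Sost-het, 9 remained above 0 under all 19 alternatives and *Loxl4* did not, but their size rested on few mice. Without WT mouse 2 the values for Jrt;Sost-het against WT ranged from 0.08 (*Plod1*) to 0.23 (*Loxl2*), with *Plod2* at 0.16, *Colgalt2* at 0.15 and *Loxl1* at 0.09. Without WT mice 3 and 4 they ranged from 0.22 (*Colgalt1*) to 1.22 (*Loxl4*). None of the 10 passed the test in that comparison, and the part of bone cell content in the shift was not tested.

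Read per kilobase of exon, so that genes can be ranked, *Lox* was the highest in every group, with mean levels of 53.7 CPM per kilobase for WT, 66.1 for Jrt;Sost-het and 83.5 for Jrt;Sost-ko. Its range lay above that of the next gene in each group. *Colgalt1*, *Plod2*, *Loxl2*, *Plod3* and *Loxl1* followed with mean levels between 14.2 and 32.7 CPM per kilobase, and neighbours among these overlapped in each group. *Plod2* ranked above *Colgalt1* in Jrt;Sost-ko mice (32.7 against 31.7) and below it in the other groups, with overlapping ranges throughout. *Plod1*, *Loxl3* and *Loxl4* were between 4.47 and 9.21, and *Colgalt2* was last in each group with 1.65, 2.19 and 0.904 CPM per kilobase. *Colgalt1* transcripts thus outnumbered those of *Colgalt2* many times over in every mouse. Per kilobase of the longest coding transcript in place of all annotated exons, *Lox* stayed first and *Colgalt2* last, and *Plod3* moved ahead of *Loxl2* and *Plod1* ahead of *Loxl1* in each group.

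The members differed in how closely they followed the type I collagen genes from mouse to mouse. Summed *Col1a1* and *Col1a2* levels ranged 3.12-fold over the 12 mice, from 21430 CPM in WT mouse 2 to 66810 CPM in Jrt;Sost-ko mouse 3. *Lox* ranged 2.92-fold over the same mice, yet its counts per 1000 counts of *Col1a1* and *Col1a2* together lay between 6.95 and 7.98 in all of them, a 1.15-fold range. This was the narrowest of the 10 enzymes. *Plod2* came next, with 2.59 to 3.65 counts per 1000 (1.41-fold), while *Plod3* ranged 2.9-fold and *Colgalt2* 7.48-fold when set against collagen.

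In tests planned on these ratios, *Lox* relative to collagen did not pass an exact permutation p of 0.05 in any comparison. Its means were 7.33 ± 0.14 in Jrt;Sost-ko, 7.68 ± 0.24 in Jrt;Sost-het and 7.36 ± 0.31 in WT (SD, n = 4), with exact p-values of 0.0571, 0.143 and 0.886 between the Jrt groups, for Jrt;Sost-het against WT and for Jrt;Sost-ko against WT. *Plod2* relative to collagen was 3.27 ± 0.38, 3.06 ± 0.21 and 2.85 ± 0.38, with exact p-values of 0.4, 0.286 and 0.171 in the same order. Beside collagen the *Plod2* ranges of the groups overlapped, and the fold difference between the Jrt groups was 1.07, against 1.41 beside *Plod1*. *Col1a1* and *Col1a2* themselves had log2 fold changes of 0.39 (SE 0.24) and 0.41 (SE 0.19) between the Jrt groups, neither called.

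Further ratios to collagen are given as values without a test, since they were added after the data had been seen. *Colgalt2* reached 0.0718 ± 0.0245 counts per 1000 collagen counts in Jrt;Sost-ko mice, 0.228 ± 0.0234 in Jrt;Sost-het mice and 0.195 ± 0.0484 in WT mice. The Jrt;Sost-ko mice were then below every mouse of both other groups, WT mouse 2 included. *Plod1* per 1000 collagen counts was 1.16 ± 0.11 in Jrt;Sost-ko mice, 1.54 ± 0.18 in Jrt;Sost-het and 1.59 ± 0.19 in WT. *Loxl4* was 0.354 ± 0.0531, 0.606 ± 0.198 and 0.538 ± 0.135 in the same order, also without overlap between Jrt;Sost-ko and the other groups. All 8 enzymes with an added ratio had a lower mean per collagen count in Jrt;Sost-ko than in both other groups. Their folds between the Jrt groups ran from 0.298 (*Colgalt2*) to 0.831 (*Loxl2*). *Colgalt1*, *Plod3*, *Loxl1* and *Loxl3* lay at 0.749, 0.787, 0.749 and 0.763, of which *Loxl3* was without overlap. The denominator itself was higher in Jrt;Sost-ko, with folds of 1.31 for *Col1a1* and 1.33 for *Col1a2* between the Jrt groups. A gene of unchanged level therefore also has a lower ratio to collagen there. The share of all genes without overlap in such a ratio was not computed.

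**Figure D4:**
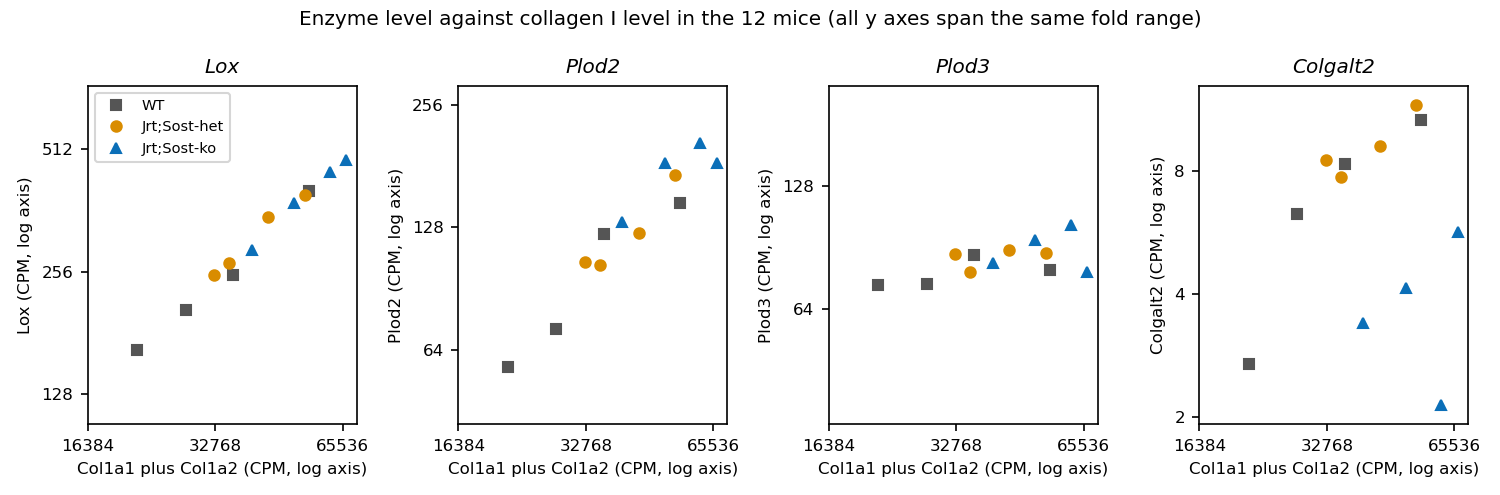
Level of 4 enzymes against the summed level of *Col1a1* and *Col1a2* in the 12 mice (both axes CPM on a log scale; squares WT, circles Jrt;Sost-het, triangles Jrt;Sost-ko). *Lox* lies along 1 line for all groups, *Plod3* is nearly flat, and for *Colgalt2* the Jrt;Sost-ko mice lie below the other mice of like collagen level.

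Pearson's r between log2 CPM of each enzyme and *Col1a1*, given as a description over 12 mice that share depth and tissue make-up, was 0.99 for *Lox*, 0.95 for *Plod2*, 0.92 for *Plod1*, 0.90 for *Loxl2* and *Loxl3*, 0.77 for *Loxl1*, 0.74 for *Colgalt1*, 0.72 for *Loxl4*, 0.55 for *Plod3* and 0.12 for *Colgalt2*. Within groups, as deviations from the group means, *Colgalt2* reached 0.70, *Loxl4* 0.90 and *Plod3* 0.33. *Colgalt2* thus had a higher r within groups, pooled over the 3 groups, than across the 12 mice. The pooled value did not describe Jrt;Sost-ko mice, where *Colgalt2* was lowest in mouse 2 (2.14 CPM). That mouse had a collagen sum of 60970 CPM, above those of mice 1 and 4 (50350 and 39870 CPM). With the chondrocyte markers r within groups was 0.83 for *Loxl4* and 0.74 for *Colgalt2*. Other lists gave values as high, with 0.76 for endothelial and 0.75 for osteoclast markers in *Colgalt2*, and 0.89 for osteocyte and 0.88 for osteoblast markers in *Loxl4*. With the neutrophil markers it was negative for 9 of the 10, down to -0.92 for *Loxl3*.

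Of 17244 other genes, those most like *Lox* over the 12 mice were *Col1a1*, *Col1a2* and *Sparc*, the gene of the bone matrix protein osteonectin, with r of 0.99 for each. Those most like *Plod2* were *P4ha1* (r = 0.98), a catalytic subunit of collagen prolyl hydroxylase, *Ifitm5* (0.97), the osteoblast gene that is mutated in type V osteogenesis imperfecta, and *Cpz* (0.96), a carboxypeptidase. Those most like *Colgalt2* were *Pcolce2* (0.96), an enhancer of procollagen processing, *Clec3a* (0.94), a lectin gene known from cartilage, and *Cdon* (0.92), a cell surface receptor of the hedgehog pathway.

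**Figure D5:**
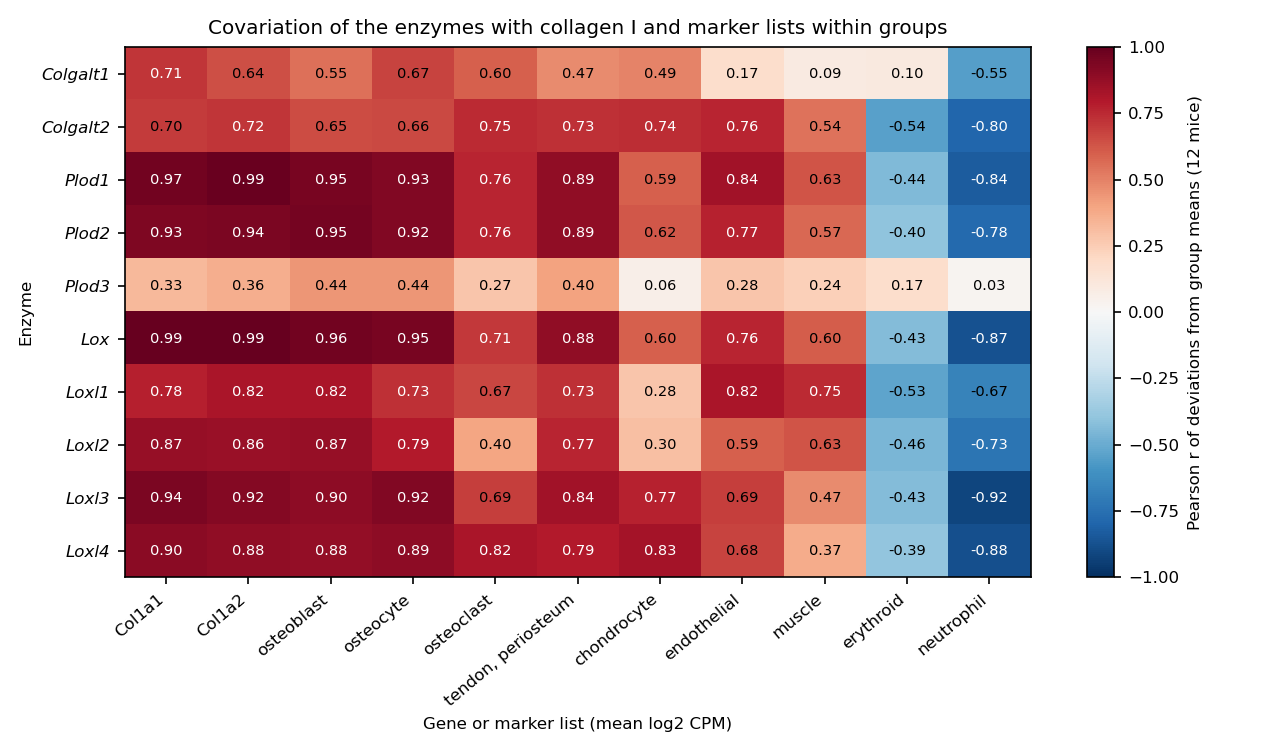
Pearson's r between the enzymes (rows) and *Col1a1*, *Col1a2* or the mean log2 CPM of marker lists (columns), computed over 12 mice on deviations from the group means and given as a description. *Lox*, *Plod1* and *Plod2* have r of 0.93 or more with both collagen genes and the osteoblast markers, *Loxl3* 0.897 or more, and *Plod3* follows none of the columns beyond 0.44.

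The partners of these enzymes mostly differed by small amounts, and none of the 35 on 3 lists passed the test in any comparison. Among 12 lysyl hydroxylase partners and collagen chaperones, 12 had a value above 0 between the Jrt groups, with a median log2 fold change of 0.10. The largest were the prolyl hydroxylase subunits *P4ha1* (0.37, SE 0.17) and *P4ha2* (0.32, SE 0.19). Against WT, 11 were higher in Jrt;Sost-het (median 0.21; *P4ha2* 0.32 and *P3h4* 0.29, the latter a partner of *Plod1*) and 12 in Jrt;Sost-ko (median 0.28; *P4ha2* 0.64 and *P4ha1* 0.59). The medians over all genes tested were 0.00 in each comparison.

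Of 12 genes for the maturation of lysyl oxidases, their copper supply and their fibril partners, 7 had a value above 0 between the Jrt groups, with a median of 0.01. The largest values were those of *Fn1*, which encodes fibronectin (-0.64, SE 0.25), and *Tll2*, a protease related to *Bmp1* (0.56, SE 0.34), which was near the limit of detection with means of 0.582 and 0.397 CPM. Against WT, 8 were higher in Jrt;Sost-het (median 0.16; *Fmod*, encoding fibromodulin, 0.46 and *Fn1* 0.42) and 10 in Jrt;Sost-ko (median 0.16; *Tll2* 0.52 and *Bmp1* 0.45, the protease that activates *Lox* and removes the collagen C-propeptide).

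Among 11 collagen and elastin substrates, 7 had a value above 0 between the Jrt groups (median 0.14). *Col2a1*, the collagen of cartilage, had the largest value, -1.72 (SE 1.01), and *Col1a2* followed with 0.41. Against WT, 11 were higher in Jrt;Sost-het (median 0.30; *Col2a1* 0.48 and *Col3a1* 0.47) and 10 in Jrt;Sost-ko (median 0.45; *Col2a1* -1.24 and *Col1a1* 0.68). The standard error of *Col2a1* was above 1 in each comparison, and its means of 491 CPM for WT, 688 for Jrt;Sost-het and 209 for Jrt;Sost-ko moved with the chondrocyte marker sums.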

How the data were processed

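RNA was sequenced from tibia shafts of 12 male mice (4 WT, 4 Jrt;Sost-het, 4 Jrt;Sost-ko). Per the study's methods, STAR was the aligner and GRCm38 the genome. The authors deposited counts per Ensembl gene as whole numbers, not normalized; the counting tool and its strand setting are not given in the sources used here. The deposited count matrix was the sole file used. The authors' 9 comparison tables (log2 fold changes, p-values and 96 columns of values per mouse) were not used. Numbers 1 to 4 within a group follow the sample order and pair no mice. The labels give each sample as a separate mouse.

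The 8 mice of each comparison entered a separate edgeR fit (version 4.0.16, R 4.3.3; filterByExpr, TMM, glmQLFit, glmQLFTest), with Benjamini–Hochberg adjustment over all genes tested and a threshold of 0.05. CPM uses TMM factors over all 12 libraries, and log2 CPM a prior count of 2. Ratios of counts and single genes were compared with exact two-sided permutation tests (70 arrangements; smallest p 0.0286) in scipy 1.17.1. Alternatives were DESeq2 1.42.0, limma-voom 3.58.1 with sample quality weights, DESeq2 size factors, upper-quartile factors, no filter on low counts, a minimum of 10 counts per mouse, a joint fit of the 12 mice, muscle markers as a covariate, TMM without muscle, erythroid, neutrophil and epidermis markers, each mouse left out, and WT mice 3 and 4 left out. The chondrocyte covariate, levels per transcript length and 9 further ratios were chosen after seeing the data. The scripts were tested on simulated counts. Of 47069 gene identifiers, 46488 (98.8%) matched GENCODE M21, which supplied the gene models.

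The enzymes, gene lists and tests were chosen with earlier results of these data known. All 10 enzymes are named, as are *Sost*, *Col1a1* and *Col1a2*, the 2 genes of each partner list with the largest absolute log2 fold change per comparison, and the 3 genes most correlated with *Colgalt2*, *Plod2* and *Lox*. Markers are given by list. Protein sequences, bone imaging and serum measurements were not analysed here.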

Additional observations from a re-analysis of the deposited data

Results flagged for a closer look

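A gap between the highest mouse and the next that was wide for a group of 4 was found 3 times in 42 groups of values examined, where chance gives about 2.1. *Loxl4* in Jrt;Sost-het mouse 1 was 47.5 CPM against 16.1 to 20.5 CPM in the other mice of its group, with a gap of 0.86 of the range. *Plod2* counts per *Plod1* count were 2.48 in the same mouse against 1.84 to 1.88 (0.931 of the range of the log2 ratio). *Plod2* counts per 1000 collagen I counts were 3.42 in WT mouse 3 against 2.59 to 2.71 (0.836 of the range of the log2 ratio).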

How the results depend on the processing

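Over 560 log2 fold changes of the enzymes under alternatives, 530 kept their sign and their side of the threshold, 29 changed sign and 1 passed the threshold (*Colgalt2* in DESeq2, 1 member called). All sign changes were in values near 0 or in *Loxl4*. Between the Jrt groups they were *Plod1* -0.0060 with upper-quartile factors, -0.0047 with at least 10 counts, -0.00019 with all 12 mice and -0.00091 with TMM without markers; *Loxl1* 0.016 with limma-voom, 0.00052 with no filter and 0.072 with the muscle covariate; *Loxl3* 0.032 with limma-voom, 0.024 with the muscle and 0.16 with the chondrocyte covariate; and *Colgalt1* 0.041 with the chondrocyte covariate. Leaving out single mice gave ranges of -0.080 to 0.061 (*Colgalt1*), -0.056 to 0.075 (*Plod1*), -0.0073 to 0.12 (*Plod3*), -0.075 to 0.076 (*Loxl1*) and -0.14 to 0.14 (*Loxl3*). *Loxl4* ranged from -0.10 to 0.93 for Jrt;Sost-het and from -0.35 to 0.46 for Jrt;Sost-ko against WT, the latter being 0.20 with limma-voom, 0.19 with the muscle covariate, 0.23 with the chondrocyte covariate and 0.74 without WT mice 3 and 4. The ratio tests that gave p = 0.0286 lost it with medians (*Colgalt2* to *Colgalt1* -1.26; *Plod2* to *Plod1* 0.60 and, against WT, 0.67; p = 0.0571 each by exact permutation) and with any mouse left out, where 0.0571 is the smallest p possible (ranges -1.53 to -1.05, 0.45 to 0.60 and 0.57 to 0.74). Without WT mice 3 and 4 the last was 0.88 (exact p = 0.133, the smallest possible). With single mice left out, *Colgalt2* to *Colgalt1* in Jrt;Sost-het against WT ranged from -0.0047 (without WT mouse 2) to 0.61, and *Lox* to collagen in Jrt;Sost-ko against WT from -0.033 to 0.016. Over all genes, 15 and 13 were called by DESeq2 in the comparisons of Jrt;Sost-ko with Jrt;Sost-het and WT, 0 and 2 by limma-voom, between 0 and 3 and between 0 and 2 with single mice left out, and 2 against WT with no filter; the cause was not tested. No paired analysis was possible because the mouse numbers were given in the order of the labels and mark no shared litter, batch or day. *Colgalt2*, the least counted enzyme, had at least 72 counts per library, and whether depth limited its comparisons was not tested.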
